A study of Mus musculus with 140 samples.

Results

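Rarb, Cyp26a1, Cyp26b1, Crabp1, Crabp2, Stra6, Stra8, Dhrs3 and Tgm2, 9 genes that handle retinoic acid, carry its signal or answer to it, were followed by day in mouse embryonic stem cells. Every probe set (the array's set of short probes for a transcript) that the platform annotation assigns to exactly 1 of these named genes was taken. This gave 14 of the 45265 probe sets on the A and B arrays and 9 of the 18194 genes with a probe set of their own. Tgm2 had 6 probe sets and each of the other genes had 1. All but that of Cyp26b1, which is on the B array, are on the A array. For Tgm2 the leading probe set, the one with the highest mean rank of signal, was used unless others are named.

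The cells were of the male 129/Sv line CCE, and 70 RNA samples formed 9 courses with 1 sample a day. In 7 knockdown courses the cells carried a short hairpin RNA (shRNA) against Esrrb, Nanog, Oct4, Sox2, Tbx3, Tcl1 or Mm343880, all genes the study treats as regulators of self-renewal, and the reference course carried the empty H1P vector. Transduced cells were grown with 1000 units/ml of LIF, the cytokine that keeps such cells undifferentiated, and GFP+ cells were sorted daily, with day 0 falling 48 hours after transduction. In the retinoic acid course the cells grew without LIF in 5 µM retinoic acid, and the labels mention neither vector nor sorting, so the effect of retinoic acid cannot be told apart from those of LIF withdrawal, transduction and sorting. The Mm343880 and retinoic acid courses had days 0 to 6 and the other courses days 0 to 7. No course was repeated, so each p-value measures the scatter of daily samples around a smooth curve, part of which may be technical. In RNA from whole cultures, fewer cells of a type and less RNA per cell cannot be told apart.

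Retinoic acid is made from vitamin A and acts through nuclear receptors, of which Rarb encodes one, that bind DNA as partners of the RXR receptors at short repeated sequences and switch genes on when the ligand arrives. Cells guard against excess ligand: the cytochrome P450 enzymes of Cyp26a1 and Cyp26b1 oxidise it, and Dhrs3 returns its precursor retinaldehyde to retinol. Crabp1 and Crabp2 encode the cellular carriers of the acid. Stra6 encodes a membrane receptor that takes up retinol, Stra8 encodes a protein needed for germ cells to enter meiosis, and Tgm2 encodes tissue transglutaminase, a protein crosslinking enzyme long known as retinoid-responsive. Several of these genes were first described as genes that retinoic acid switches on in embryonal carcinoma or stem cells.

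The DNA upstream of Rarb and Cyp26a1 is shown because each carries, in front of the start of transcription, the kind of repeat that the receptors bind. RefSeq promoter windows (assembly GRCm38.p6) were matched for 7 of the 9 genes, 12 windows in all, and none was listed for Crabp2 and Tgm2. The windows reach from 250 bases before to 50 after a start, and they were searched on both strands for retinoic acid response elements of the direct repeat classes DR1, DR2 and DR5. These are pairs of a 6-base half-site, AGGTCA or a close variant, in the same orientation with 1, 2 or 5 bases between them. The 250 bases before the start are printed 5′ to 3′ on the strand of the gene, in lower case, with the element in capitals.
Rarb, chr14:16575477-16575726 (minus strand): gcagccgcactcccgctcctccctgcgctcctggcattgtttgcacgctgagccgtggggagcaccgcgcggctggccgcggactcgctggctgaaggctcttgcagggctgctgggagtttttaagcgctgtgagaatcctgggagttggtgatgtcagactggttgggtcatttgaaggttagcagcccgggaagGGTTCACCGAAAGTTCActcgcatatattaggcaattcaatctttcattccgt
Cyp26a1, chr19:37697558-37697807 (plus strand): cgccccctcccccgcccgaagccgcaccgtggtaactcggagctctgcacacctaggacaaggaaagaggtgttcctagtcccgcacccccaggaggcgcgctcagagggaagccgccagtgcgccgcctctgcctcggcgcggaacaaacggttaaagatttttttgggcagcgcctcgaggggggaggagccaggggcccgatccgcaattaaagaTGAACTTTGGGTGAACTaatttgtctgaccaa
Both elements have a spacing of 5 bases, and set out below with their half-sites in capitals they share the second half-site.
Rarb element: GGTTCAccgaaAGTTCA
Cyp26a1 element, reverse strand: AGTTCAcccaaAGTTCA
The Rarb element lies from position -53 to -37 before the start and the Cyp26a1 element from -32 to -16. Both windows lie at least partly inside the span that RefSeq gives for the gene. A repeat with a spacing of 5 bases occurred in 32 of 32851 windows of the table (0.0974%), and one with any of the 3 spacings in 193 (0.588%). No such pair was found in the windows of Cyp26b1, Crabp1, Stra6, Stra8 and Dhrs3, which says only that these letters are not in those windows.

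Several facts of the whole series bear on the values. Each of the 6 targets that the arrays name (Esrrb, Nanog, Pou5f1, Sox2, Tbx3 and Tcl1) had a lower signal than in the empty vector course on 8 of 8 days, with mean fold reductions of 2.63 to 7.80. The array signal has no unit, and precision is set by how many arrays there were. The median signal per array was 236 to 383 on A arrays, with 265 to 383 in the retinoic acid course, and 64.5 to 128.5 on B arrays. Across all probe sets the retinoic acid course lay 0.16 above the empty vector on days 4 to 6 and 0.17 above on days 1 to 3 (medians, log2). Of the calls in the retinoic acid course on days 4 to 6, 62.5% were higher, against 47.0% after quantile normalization, and on days 1 to 3 69.5% against 48.8%. For the Nanog course this share was 57.8% against 47.0%. None of the 37 called differences of the 9 genes from the empty vector, or between windows of the retinoic acid course, changed direction under quantile normalization. Of the 14 probe sets, 13 passed the filter on low signals and 1, a Tgm2 probe set that lay between 9.6 and 151.9 over the 70 samples, did not. Rarb and Stra6 passed through retinoic acid arrays: outside that course Rarb exceeded the table median on 0 arrays and Stra6 on 1, so both could be tested only because they were high there. The 10 embryonic stem cell markers were present in the empty vector course, with a summed signal of 89085 to 108797.

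**Figure D1:**
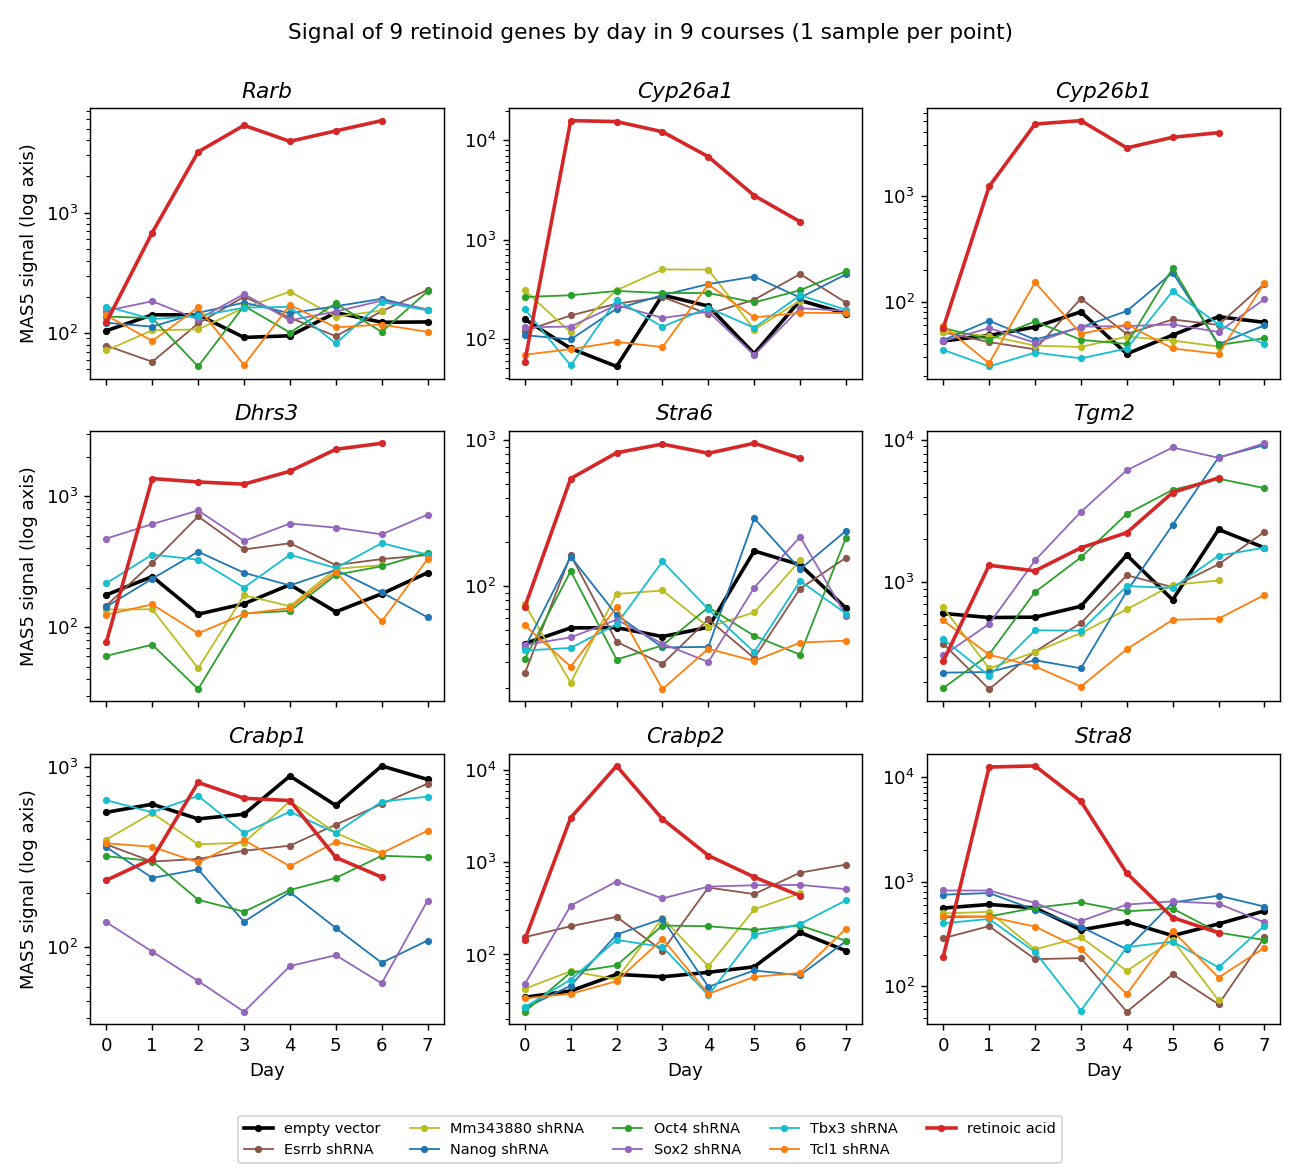
Signal of each gene (vertical log axis, MAS5 signal without unit) against day (horizontal axis) in the 9 courses, 1 sample per point; black is the empty vector and red is retinoic acid. Rarb, Cyp26a1 and Cyp26b1 left the range of the other courses from day 1 of retinoic acid, Tgm2 rose in several courses, and Crabp1 was lowest in the Sox2 course on days 0 to 6.

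The enzyme of retinoic acid breakdown encoded by Cyp26a1 had the earliest peak. Its signal in the retinoic acid course was 58.5 on day 0, 15848 on day 1, 15507 on day 2, 12239 on day 3, 6850 on day 4, 2775 on day 5 and 1513 on day 6. It thus stood at its highest on day 1 and declined on each later day, to 9.54% of the peak. In the 63 samples of the other 8 courses it ran from 52.4 to 498.6 with a median of 202.5, so all 6 later days with retinoic acid lay above every other sample. On the log2(signal + pseudocount) scale used for all differences, which understates changes of low signals, days 1 to 3 exceeded the empty vector by 6.15 ± 0.48 (SE; 95% interval 5.18 to 7.11; limma adjusted p = 7.57e-14), about 70.8-fold. On days 4 to 6 the difference was 3.60 ± 0.48 (adjusted p = 2.85e-08), and the decline between these windows was -2.19 ± 0.48 (adjusted p = 0.000955). The decline kept its direction but not its call without day 6 (-1.04), with a 2 degree of freedom spline (-0.91) and with only the retinoic acid course fitted.

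Stra8, the meiosis gene, and Crabp2, the carrier that passes the acid to its receptor, were transient as well. Stra8 stood at 190.9 on day 0, at 12447, 12758 and 5857 on days 1 to 3, and at 1203, 453 and 323.7 on days 4 to 6. It returned to 2.54% of its peak, within the 56.9 to 821.9 of the other courses. Its days 1 to 3 difference from the empty vector was 3.97 ± 0.39 (limma adjusted p = 4.30e-11), that of days 4 to 6 was 0.52 ± 0.39 (adjusted p = 0.309), and the fall between them was -3.89 ± 0.39 (adjusted p = 2.54e-10). The fall held under all alternatives tried. Crabp2 rose from 144.5 to 3044 on day 1 and 11099 on day 2, and then read 2945, 1184, 691 and 433.6 on days 3 to 6. It was highest on day 2, and day 6 was at 3.91% of that value. Days 1 to 3 lay 5.35 ± 0.35 above the empty vector (limma adjusted p = 6.95e-16) and days 4 to 6 still 2.24 ± 0.35 (adjusted p = 9.71e-07), with a fall between them of -2.67 ± 0.35 (adjusted p = 1.95e-07). Without day 6 this fall was -1.40 and lost its call (adjusted p = 0.486).

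Rarb, the receptor, and Cyp26b1, the second breakdown enzyme, rose more slowly and stayed high. Rarb read 122.2, 683, 3202, 5324, 3919, 4786 and 5826 on days 0 to 6, and only 11.7% of the highest value had been reached on day 1. In the other courses it lay between 52.6 and 227.8 with a median of 140.1. The difference from the empty vector, given as a description because Rarb entered the test only through this course, was 3.69 ± 0.24 on days 1 to 3 and 4.79 ± 0.24 on days 4 to 6, about 27.6-fold. Within the course the later window exceeded the earlier one by 1.08 ± 0.24, likewise only a description. That rise was called in the main fit, but not without day 6 (1.24) or in either fit without a spline. Cyp26b1 read 56.6, 1218, 4726, 5091, 2815, 3545 and 3920, against 24.5 to 206.6 in the other courses. It thus reached a plateau by day 2 and had a late difference of 5.55 ± 0.40 (limma adjusted p = 8.75e-16), after 5.23 ± 0.40 on days 1 to 3. Its windows differed by 0.19 with a 95% interval of -0.60 to 0.99 and did not pass the test (adjusted p = 0.856).

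Dhrs3 and Stra6, which act on retinaldehyde and on retinol uptake, also stayed high. Dhrs3 went from 77.1 on day 0 to 1368 on day 1, remained at 1289 and 1240, and read 1556, 2288 and 2545 on days 4 to 6. The 6 later days lay above all 63 other samples, whose highest value, 780.5, was in the Sox2 course. Its late difference was 3.13 ± 0.31 (limma adjusted p = 1.15e-11), and the excess of the later over the earlier window, 0.68 ± 0.30, did not pass (adjusted p = 0.164). Stra6 read 71.8, 544, 817, 937, 811, 949 and 750, against 19.7 to 290.8 elsewhere. It differed from the empty vector by 2.87 ± 0.37 on days 1 to 3 and by 2.35 ± 0.38 on days 4 to 6, again as a description, since Stra6 too was tested only because it was high here.

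Tgm2 climbed to the end of the retinoic acid course, but its levels there were matched in other courses. It read 278.8, 1317, 1204, 1746, 2232, 4270 and 5412 on days 0 to 6, and 0 of these days exceeded the highest of the other 63 samples, 9469 in the Sox2 course. The empty vector itself read 605, 566, 569, 679, 1554, 753, 2349 and 1749 on days 0 to 7. The empty vector values on days 4 to 6 scattered widely and overlapped those with retinoic acid. The difference was 0.98 ± 0.28 on days 1 to 3 (limma adjusted p = 0.00416) and 1.45 ± 0.28 on days 4 to 6 (adjusted p = 3.38e-05), and the later window lay 1.44 ± 0.28 above the earlier one (adjusted p = 0.000214). On days 1 to 3 the 5 Tgm2 probe sets that passed the filter disagreed: 2 were called higher, and the differences ran from -0.06 to 0.98. Without day 5, on which the empty vector was low, the late difference was 0.66 (adjusted p = 0.153).

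Crabp1, the other carrier, was the only gene of the 9 called lower than the empty vector with retinoic acid, on days 4 to 6. With retinoic acid it read 235.4 on day 0, 309.3 and 823.7 on days 1 and 2, 672.4 and 652.8 on days 3 and 4, and 315.2 and 244.8 on days 5 and 6. This small hump stayed within the 43.6 to 1018 of the other courses. Against the empty vector, at 516 to 1018, the difference was 0.05 ± 0.20 on days 1 to 3 (limma adjusted p = 0.880) and -0.98 ± 0.20 on days 4 to 6 (adjusted p = 9.10e-05). Day 0 was already below that of the empty vector, 235.4 against 561.7. Within the course, days 4 to 6 did not differ detectably from days 0 and 1 (0.26 ± 0.23, limma adjusted p = 0.475). The decline between windows, -0.61 ± 0.20 (adjusted p = 0.0427), was lost in 11 of 19 alternatives.

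**Figure D2:**
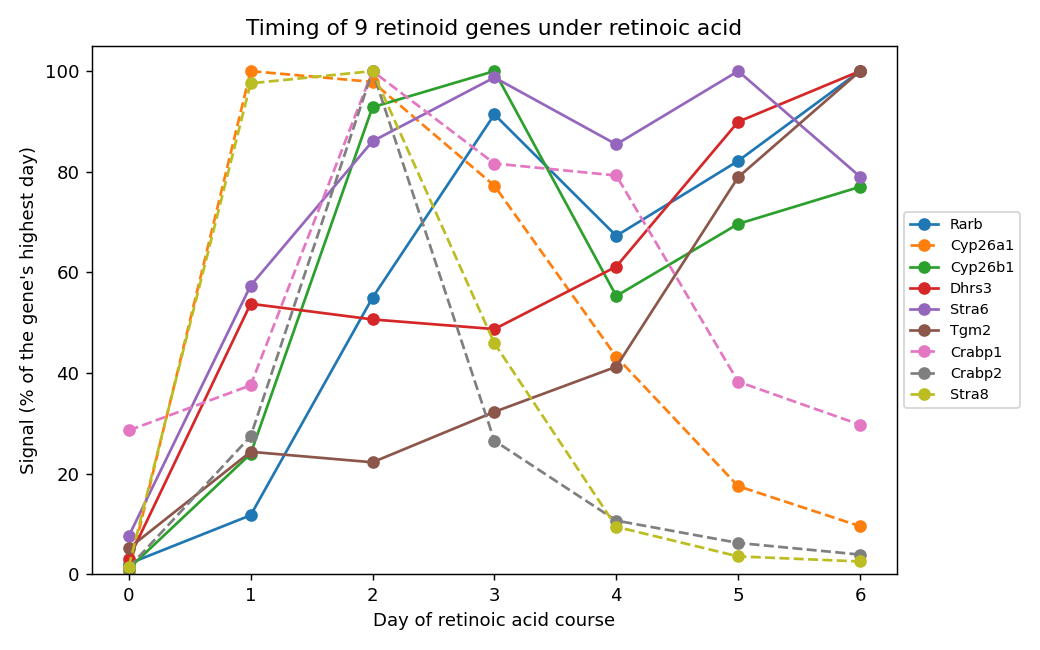
Signal in the retinoic acid course as a percentage of each gene's own highest day (vertical axis) against day (horizontal axis), 1 sample per point; dashed lines are the 4 genes that had fallen on days 4 to 6. Cyp26a1 peaked on day 1 and Stra8, Crabp2 and Crabp1 on day 2, while Rarb, Dhrs3 and Tgm2 were highest on day 6.

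Counted together, on days 1 to 3 of retinoic acid 8 of the 9 genes lay above the empty vector and 0 below, where 27% of the 32992 probe sets tested were called higher and 11.9% lower. The median difference of the 9 genes was 3.69, against 0.17 over all probe sets. On days 4 to 6, 7 were higher and 1 lower, where 27.2% of probe sets were called higher and 16.3% lower, and the median was 2.35 against 0.16. Both counts and both medians include Rarb and Stra6, which were tested only because they were high with retinoic acid. Of the other 7 genes, 6 were higher and 0 lower on days 1 to 3, with a median of 3.97. On days 4 to 6, 5 of these 7 were higher and 1 lower, with a median of 2.24. Between the windows 2 rose (Rarb and Tgm2) and 4 fell (Cyp26a1, Crabp1, Crabp2 and Stra8), where 5.36% of probe sets rose and 5.42% fell. Without Rarb and Stra6, 1 of the other 7 rose and 4 fell. The counts of called genes among the 9 kept within 1.5 times under the alternatives tried for the first 2 comparisons. The third count fell to 3 with window means in place of a spline and to 2 without day 6. Day 0 of the retinoic acid course already stood apart from day 0 of the empty vector for some genes: Stra8 read 190.9 against 557.9, Crabp1 235.4 against 561.7 and Crabp2 144.5 against 34.3. The labels do not give the hours of exposure on that day.

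Other genes of the pathway, on lists chosen with earlier results of these data known, moved unevenly with retinoic acid, and their medians stand beside the 0.16 of all probe sets. Of 4 other receptor genes tested, 0 were higher and 3 lower on days 4 to 6 (median -0.82). Rarg fell by 1.37 ± 0.16 (limma adjusted p = 2.45e-09), Rxrb by 0.82 ± 0.20 and Rxra by 0.81 ± 0.20, while Rara, at -0.16 ± 0.19, did not pass. Lower receptor signals were not particular to retinoic acid: 3 of these 4 genes were lower in the Sox2 course, 2 in Nanog and 2 in Oct4. The median was -0.65 in each of those courses. In the Esrrb, Mm343880, Tbx3 and Tcl1 courses 0 were called. With retinoic acid Rarb had a positive difference, given above only as a description. Of 13 genes of retinoid synthesis, storage and transport, 6 were higher and 3 lower (median 0.12). Aldh1a2, which makes retinoic acid, was higher by 1.73 ± 0.27 on days 1 to 3 and by 4.37 ± 0.27 on days 4 to 6 (adjusted p = 2.32e-17), and Adh1, an alcohol dehydrogenase, by 1.66 ± 0.26 late. Adh5 fell by 0.75 ± 0.10 and Dgat1, an acyltransferase that can esterify retinol, by 0.87 ± 0.13. Of 12 nuclear receptor coregulators, 6 were higher and 1 lower (median 0.71), with Ncoa2, a coactivator, at 2.72 ± 0.25. Of 21 known retinoic acid targets outside the 9 genes, 15 were higher and 2 lower (median 1.48), among them the transcription factors Nr2f1 at 4.83 ± 0.33, Meis2 at 4.16 ± 0.24 and Gata6 at 3.86 ± 0.18.

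Markers of cell types moved in the same course. All 10 embryonic stem cell markers were lower on days 4 to 6, when their summed signal was 1589 to 3552 against 91815 to 108797 in the empty vector. Of 12 extraembryonic endoderm markers 8 were higher and 0 lower, with summed signals of 21492 to 30753 against 4603 to 5906. Of 7 fibroblast markers 5 were higher and 1 lower, with 15786 to 22741 against 1352 to 1647. Of 9 neuroectoderm markers 5 were higher and 1 lower (5724 to 7227 against 2692 to 2947), of 5 germ line markers 2 and 2 (2917 to 3422 against 998 to 1174), of 5 mesoderm and streak markers 2 and 0 (2727 to 3633 against 1082 to 1641) and of 11 trophectoderm markers 5 and 4 (12778 to 22937 against 5199 to 8424). No marker was listed at 0 in these sums. Their part in the levels of the 9 genes was not tested.

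Without retinoic acid, the 4 genes Rarb, Cyp26a1, Cyp26b1 and Stra6 were not called in any knockdown course on days 4 to 6 by limma. At an unadjusted p under 0.05, Rarb, Cyp26a1 and Cyp26b1 had 0 of 7 courses each and Stra6 had 1 of 7. The differences from the empty vector ran from 0.03 to 0.37 for Rarb (SE at most 0.24), from -0.24 to 0.86 for Cyp26a1 (SE at most 0.48), from -0.19 to 0.67 for Cyp26b1 (SE at most 0.40) and from -0.85 to 0.13 for Stra6 (SE at most 0.38). With errors of this size, modest changes of these genes were not detectable. Compared directly on days 4 to 6, retinoic acid exceeded each of the 7 knockdown courses for these genes, by 2.74 to 3.84 for Cyp26a1 and 4.88 to 5.74 for Cyp26b1 (largest limma adjusted p = 8.26e-06). For Rarb the excess was 4.42 to 4.75 and for Stra6 2.22 to 3.19, as a description. Dhrs3 did so too, by 1.73 to 3.09. By mean signal on days 4 to 6 retinoic acid stood first for all 4 genes, at 4844 ± 955 for Rarb, 3713 ± 2790 for Cyp26a1, 3427 ± 562 for Cyp26b1 and 837 ± 102 for Stra6 (SD, n = 3 days), and the other courses overlapped from neighbour to neighbour.

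The other genes were each called in at least 1 knockdown course, from 1 of 7 for Stra8 and Dhrs3 to 6 of 7 for Crabp1. Of all probe sets, smaller shares were called in these courses than with retinoic acid. Of the 9 genes, 1 was higher and 2 lower in the Esrrb course, where 5.33% of probe sets were called higher and 3.23% lower. In the Mm343880 course 1 was higher and 1 lower (6.38% and 5.23% of probe sets), in the Nanog course 1 and 1 (8.99% and 6.57%), and in the Oct4 course 1 and 1 (4.59% and 6.81%). The Sox2 course had 3 higher and 1 lower (8.71% and 7.84%), the Tbx3 course 0 and 0 (4.62% and 3.43%), and the Tcl1 course 0 and 2 (3.55% and 2.92%). In the Tbx3 course 2 genes had an unadjusted p under 0.05. The 8 comparisons share the empty vector samples.

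**Figure D3:**
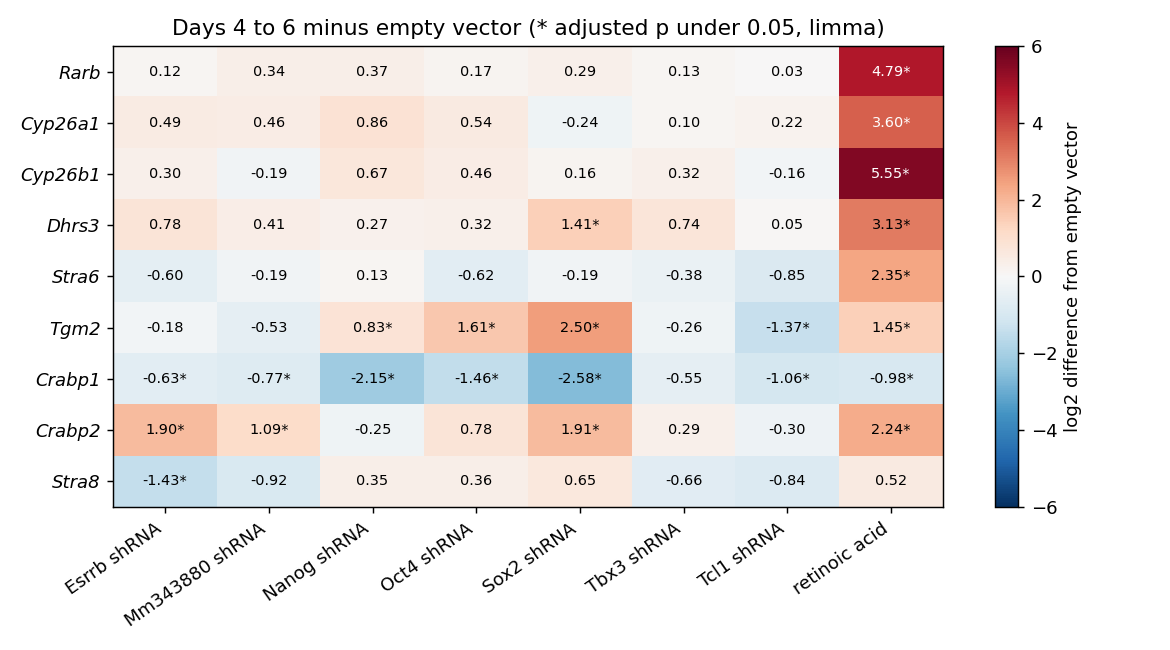
Difference of each gene (rows) from the empty vector on days 4 to 6 in each course (columns), as log2 values printed in the cells and shown by colour; asterisks mark a limma adjusted p under 0.05. The first 3 rows and the Stra6 row carry asterisks only under retinoic acid, through which Rarb and Stra6 entered the test, whereas Crabp1 is called lower in 7 of the 8 courses.

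Tgm2, the transglutaminase, gave the largest rises without retinoic acid. In the Sox2 course it read 306.5, 510, 1426, 3127, 6123, 8845, 7485 and 9469 on days 0 to 7. In the Oct4 course it read 180.8, 311.5, 854, 1496, 3020, 4458, 5342 and 4583. In the Nanog course it read 232.1, 234.2, 283.7, 249.0, 865, 2537, 7533 and 9190. The rise was thus under way by day 2 after Sox2 or Oct4 shRNA, and after Nanog shRNA the signal stayed below 300 until day 3. On days 4 to 6 the Sox2 and Oct4 samples lay above all those of the empty vector, and the Nanog samples overlapped them. The differences were 2.50 ± 0.28 for Sox2 (limma adjusted p = 3.57e-09), 1.61 ± 0.28 for Oct4 (adjusted p = 3.74e-05) and 0.83 ± 0.28 for Nanog (adjusted p = 0.0349). The Nanog call was lost in 8 of 19 alternatives, and without day 5 the difference was 0.25 (adjusted p = 0.763). In the Tcl1 course Tgm2 read 339.2, 546 and 555 on days 4 to 6, below the lowest empty vector value of 753. The difference was -1.37 ± 0.28 (adjusted p = 0.00108). From days 0 and 1 to days 4 to 6 the Tcl1 course itself changed by only 0.14 ± 0.31 (adjusted p = 0.951), and the empty vector by 1.09 ± 0.31 (adjusted p = 0.108). Another Tgm2 probe set did fall within the Tcl1 course (-1.38 ± 0.31, adjusted p = 0.0103). Mean signals on days 4 to 6 ran from 7484 ± 1361 (SD, n = 3 days) in the Sox2 course through 4273 ± 1172 in Oct4, 3971 ± 1611 with retinoic acid, 3645 ± 3470 in Nanog and 1552 ± 798 in the empty vector to 480 ± 122 in Tcl1. Of neighbours in this order of 9 courses, only Sox2 and Oct4, and Mm343880 and Tcl1, did not overlap.

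On days 4 to 6 the other Tgm2 probe sets differed from the leading one in size and in some calls. All 5 that passed the filter were called higher in the Sox2 course (1.25 to 2.50) and with retinoic acid (0.80 to 1.57), and all 5 lower in the Tcl1 course (-1.87 to -1.0). In the Oct4 course 4 of 5 were called higher (0.66 to 1.64) and in the Nanog course 2 of 5 (0.43 to 0.83). In the Mm343880 course 2 of 5 were called lower (-0.96 to -0.53) although the leading one was not. Probe sets of 1 gene share its transcripts and are not independent measurements.

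**Figure D4:**
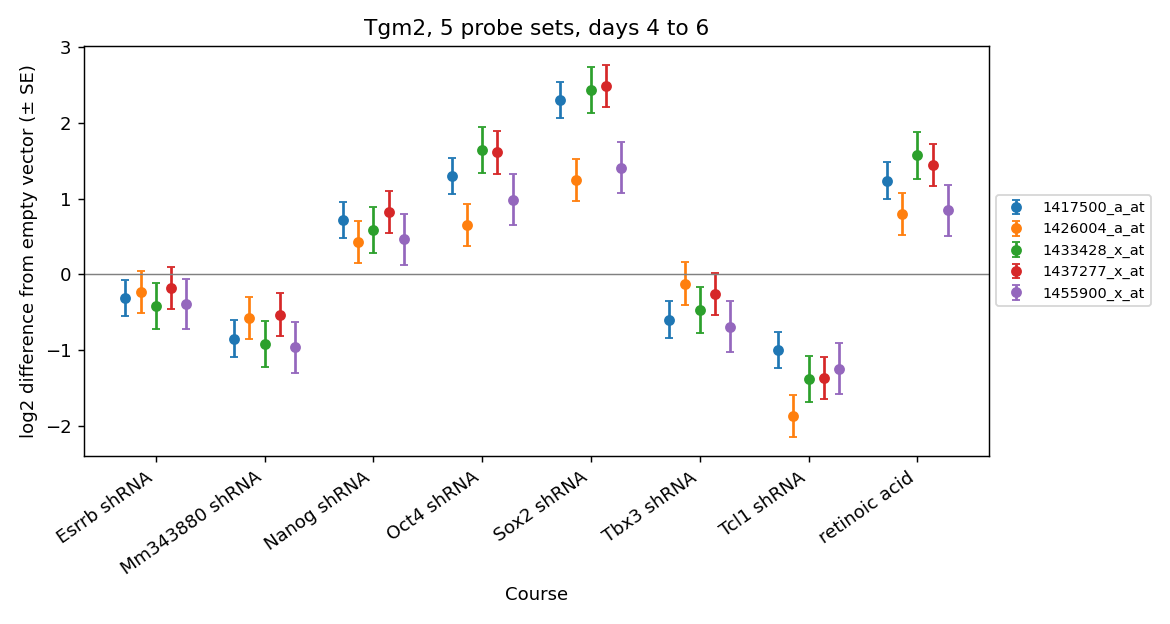
Difference of Tgm2 from the empty vector on days 4 to 6 (vertical axis, log2, with SE as bars) for its 5 probe sets past the filter (colours) in each of the 8 courses (horizontal axis). All 5 lie above 0 in the Nanog, Oct4, Sox2 and retinoic acid courses and below 0 in the other 4.

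Markers of trophectoderm, the lineage that forms the outer layer of the blastocyst, were called higher in all 7 knockdown courses on days 4 to 6. Of 11 tested, 10 were higher in the Sox2 course, 11 in the Oct4 course and 11 in the Nanog course, the courses in which Tgm2 was higher. Their summed signals there were 73233 to 99113, 81805 to 96599 and 49246 to 122562 against 5199 to 8424 in the empty vector. Where Tgm2 was not higher, the markers higher were 8 of 11 in the Esrrb course (19269 to 58499), 7 in Mm343880 (8934 to 38477), 7 in Tbx3 (8263 to 41374) and 6 in Tcl1 (9409 to 23130). Of 12 extraembryonic endoderm markers, 5 were higher and 0 lower in the Nanog course, 4 and 1 in the Sox2 course and 3 and 1 in the Oct4 course. Their sums were 9655 to 13749, 7842 to 12156 and 9241 to 11145 against 4603 to 5906 in the empty vector. In the other 4 knockdown courses at most 2 of the 12 were higher. No marker of either list was at 0. Their part in the Tgm2 levels was not tested.

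Crabp1 was lower than in the empty vector in 6 of the 7 knockdown courses, and in the Tbx3 course the difference was -0.55 ± 0.20 (limma adjusted p = 0.0860). The empty vector read 562, 623, 516, 548, 894, 613.5, 1018 and 856 on days 0 to 7. The Sox2 course read 137.2, 94.2, 64.7, 43.6, 78.3, 90.0, 62.7 and 181.2, the lowest of any course on days 0 to 6. The Nanog course read 359.4, 242.3, 270.2, 138.2, 201.9, 127.5, 81.7 and 108.6. Crabp1 was thus already low on day 0 after Sox2 shRNA and became lower over days after Nanog shRNA, and neither course overlapped the empty vector on any day. On day 0 it also read below the empty vector in the Esrrb (371.8), Mm343880 (396.1), Oct4 (320.2) and Tcl1 (377.4) courses, but not in Tbx3 (655.5). From days 0 and 1 to days 4 to 6 it fell detectably in 1 of the 7 knockdown courses, Nanog. The empty vector changed by 0.42 ± 0.23 (limma adjusted p = 0.479). Late differences were -2.58 ± 0.20 for Sox2 (adjusted p = 3.73e-13), -2.15 ± 0.20 for Nanog (adjusted p = 8.94e-11), -1.46 ± 0.20 for Oct4 (adjusted p = 6.51e-07) and -1.06 ± 0.20 for Tcl1 (adjusted p = 0.000543). The smaller ones, -0.77 ± 0.20 for Mm343880 (adjusted p = 0.00856) and -0.63 ± 0.20 for Esrrb (adjusted p = 0.0406), lost their calls in 4 and 8 of 19 alternatives. In the order of mean signals on days 4 to 6, from 842 ± 207 (SD, n = 3 days) in the empty vector to 77 ± 13.7 in the Sox2 course, neighbouring courses overlapped except Oct4 (257.2 ± 58.6) and Nanog (137.0 ± 60.7).

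On days 4 to 6 Crabp2 was higher than in the empty vector in 3 of the knockdown courses in which Crabp1 was lower. In the Esrrb course it read 154.0, 202.2, 256.2, 109.5, 532, 452, 772 and 944 on days 0 to 7. In the Sox2 course it read 47.7, 338.1, 619, 405, 545, 563, 568 and 511. The empty vector ran from 34.3 to 173.2 with a median of 62.4. Compared with it on the same day, both courses were higher on 8 of 8 days. Day 0 in both courses and day 3 in the Esrrb course still lay within its range. The differences were 1.91 ± 0.35 for Sox2 (limma adjusted p = 6.43e-05) and 1.90 ± 0.35 for Esrrb (adjusted p = 0.000158), and both held under all alternatives tried. Retinoic acid on days 4 to 6 did not differ detectably from either, by 0.33 ± 0.35 for Sox2 (adjusted p = 0.528) and 0.34 ± 0.35 for Esrrb (adjusted p = 0.493). Its peak on day 2, at 11099, had no counterpart in those courses, where the highest signal was 944. In the Mm343880 course the signal was 74.5, 308.5 and 460.5 on days 4 to 6, with a difference of 1.09 ± 0.35 (adjusted p = 0.0358) that was lost in 11 of 19 alternatives.

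On days 4 to 6 Stra8 and Dhrs3 each differed from the empty vector in 1 knockdown course. Stra8 in the Esrrb course read 287.3, 374.7, 181.1, 185.4, 56.9, 129.8, 67.1 and 292.2, below the empty vector on each of the 8 days, and the late difference was -1.43 ± 0.39 (limma adjusted p = 0.0127). The call was lost without day 4 (-1.19, adjusted p = 0.141) or day 6 (-1.24, adjusted p = 0.0969). It was also lost with the table median as pseudocount (-0.76, adjusted p = 0.0662). Dhrs3 in the Sox2 course read 476, 614.5, 780.5, 456, 620.5, 577, 513 and 724, against 125.9 to 261.1 in the empty vector, already apart on day 0. The difference was 1.41 ± 0.30 (adjusted p = 0.000567), and without day 5 it was 1.17 (adjusted p = 0.0726). These 2 late differences did not pass in the other knockdown courses: Stra8 had an unadjusted p under 0.05 in 3 of 7 courses and Dhrs3 in 3 of 7.

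Compared with the mean of the other 6 knockdown courses, 3 of the 9 genes differed in the Esrrb course (5.58% of probe sets in either direction), 2 in Mm343880 (9.71%), 2 in Nanog (11.7%), 1 in Oct4 (10.5%), 5 in Sox2 (12.7%), 2 in Tbx3 (9.5%) and 2 in Tcl1 (9.3%). The Sox2 course thus had the most genes apart from the other knockdown courses: Tgm2, Crabp2, Stra8 and Dhrs3 above and Crabp1 below. Against the empty vector, Stra8 in the Sox2 course did not pass (0.65 ± 0.39, limma adjusted p = 0.307). Its mean signal on days 4 to 6 was 84.6 in Esrrb, 162.7 in Mm343880, 217.9 in Tbx3 and 180.1 in Tcl1. These lay below the 369.8 of the empty vector, while Nanog (529.6) and Oct4 (465.4) lay above it. In the direct comparison with retinoic acid on days 4 to 6, 7 of the 9 genes differed from the Esrrb course (39.9% of probe sets), 8 from Mm343880 (39.4%), 7 from Nanog (37.5%), 6 from Oct4 (41.8%), 7 from Sox2 (36%), 8 from Tbx3 (41.9%) and 8 from Tcl1 (46.5%). Rarb and Stra6 are in each of these counts, and without them they were 4 to 6 of 7. All these differences had the retinoic acid course higher except that of Tgm2 in the Sox2 course, where it was lower (-1.05 ± 0.28, limma adjusted p = 0.00251). For Tgm2 the difference of retinoic acid from the Oct4 course did not pass (-0.17 ± 0.28, interval -0.73 to 0.40, limma adjusted p = 0.680). That from the Nanog course did not pass after adjustment (0.62 ± 0.28, adjusted p = 0.0816), although its interval, 0.05 to 1.18, was wholly positive. Another Tgm2 probe set was called higher with retinoic acid than in the Nanog course (0.99 ± 0.31, adjusted p = 0.00834). The remaining Tgm2 probe sets past the filter were not called against that course.

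Within courses, days 4 to 6 were also compared with days 0 and 1. In the empty vector 0 of the 9 genes passed limma's test, where 0.458% of probe sets did; 1, Tgm2, had an unadjusted p under 0.05 (1.09 ± 0.31, adjusted p = 0.108). Tgm2 rose in the Sox2 course by 4.0 ± 0.31, in Oct4 by 3.73, in Nanog by 3.04, in Esrrb by 1.79 and in Tbx3 by 1.53, and with retinoic acid by 2.62 (largest adjusted p = 0.00189). Crabp2 rose in the Mm343880 course by 1.53, in Sox2 by 1.52 and in Oct4 by 1.37, Dhrs3 rose in Oct4 by 1.23, and Crabp1 fell by 0.96 in Nanog. Counts were 1 of 9 in Esrrb (4.23% of probe sets), 1 in Mm343880 (7.02%), 2 in Nanog (7.07%), 3 in Oct4 (5.36%), 2 in Sox2 (4.92%), 1 in Tbx3 (2.64%), 0 in Tcl1 (1.37%, with 1 at an unadjusted p under 0.05) and 7 with retinoic acid (25.5%). Without Rarb and Stra6 the last count was 5 of 7, and without day 0 it was 3 of 9. In the full count with retinoic acid 6 were higher and 1, Stra8, lower (-1.21 ± 0.44, limma adjusted p = 0.0357). The baseline of that course includes day 1, when Cyp26a1 already read 15848 and Stra8 12447.

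Over the 70 samples, which share the 7 retinoic acid samples as their extreme points, Rarb and Cyp26b1 followed each other most closely of the 9 genes (Pearson r = 0.93, as a description). Without the retinoic acid course, over 63 samples, this r was 0.16. Crabp2 and Dhrs3 had r = 0.73 over 70 samples and 0.64 over 63, the closest pair outside retinoic acid, and Crabp2 and Tgm2 had 0.44 and 0.50. The genes outside the 9 with the most similar pattern over 70 samples were Hoxc4 (0.97) and Masp1 (0.96) for Rarb, Mecom for Cyp26b1 (0.95), Zfp703 for Cyp26a1 (0.90) and Ctsb for Tgm2 (0.88). For Dhrs3 and Crabp2 it was Serpinf1 in each case (0.83 and 0.80), for Stra6 Dnajb4 (0.85), for Crabp1 Ifitm2 (0.78) and for Stra8 Etfdh (0.76).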

How the data were processed

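The authors deposited MAS5 signals, that is intensity values on a linear scale, for each probe set and array (tool named per the submitters' processing notes, without a version). On every array the trimmed mean of 100 control probe sets common to the A and B designs was 2500 (2499.99 to 2500.01). The highest correlation between any pair of A arrays was 0.984. Course and day were taken from the labels; the Dppa4 course that the design names was not analysed here.

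The 9 genes, the gene lists, the motif and the tests were chosen with earlier results of these data known. Signals were transformed to log2(signal + pseudocount), with the 20th percentile as pseudocount (63.1 on A, 21.8 on B). The 32992 probe sets tested had to exceed the median of their table (283.3 on A, 89.2 on B) on at least 3 of 70 arrays. With limma 3.58.1 in R 4.3.3 (lmFit, eBayes with trend), all courses were fitted together per array design, each with its own natural cubic spline over days (3 degrees of freedom). Window values were averages of the curves. Benjamini-Hochberg adjustment ran over all 32992 probe sets, with a threshold of 0.05. The fit was tested on simulated data. The text names all 9 genes, up to 4 genes per pathway list by smallest p with retinoic acid, and genes with the highest correlation. The alternatives were 11 changes of processing and 8 fits that left out a day from all courses.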

Additional observations from a re-analysis of the deposited data

Results flagged for a closer look

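Of 81 combinations of gene and course, 9 had a highest or lowest sample whose gap to its neighbour was large for the range of the course, and chance flags about 1 in 20. The ratio of gap to range was 0.557 for Rarb in the Tbx3 course, where day 5 was lowest at 81.7, and 0.621 for Cyp26a1 in the Oct4 course, where day 7 was highest at 478.6. For Cyp26b1 the highest sample stood apart in the Nanog course (0.577, day 5, 188.1), the Oct4 course (0.730, day 5, 206.6) and the Sox2 course (0.609, day 7, 105.3). For Crabp2 in the Sox2 course day 0 was lowest (0.708, 47.7). In the retinoic acid course day 0 was the low sample for Cyp26b1 (0.661, 56.6), Stra6 (0.747, 71.8) and Dhrs3 (0.763, 77.1).

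Of 63 tests of a gene in 1 knockdown course against the mean of the other 6 on days 4 to 6 (limma), 17 passed. Crabp1 differed by 0.79 in the Esrrb course, 0.63 in Mm343880, 0.89 in Tbx3, -0.97 in Nanog and -1.48 in Sox2. Crabp2 differed by 1.31 in Esrrb, 1.32 in Sox2, -1.19 in Nanog and -1.25 in Tcl1. Stra8 differed by -1.25 in Esrrb and 1.17 in Sox2, and Dhrs3 by 0.98 in Sox2. Tgm2 differed by 2.48 in Sox2, 1.45 in Oct4, -0.74 in Tbx3, -1.05 in Mm343880 and -2.03 in Tcl1.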

How the results depend on the processing

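Of 37 log2 differences called, 23 kept their call under all 19 alternatives. Both numbers include differences of Rarb and Stra6, which entered the test only through the retinoic acid course. Over the 703 recomputed values 645 kept direction and call, 58 kept direction but not the call, and 0 changed direction. Of 494 recomputed counts of called genes, 435 stayed within 1.5 times. The cause was not tested for the counts that did not, given here.

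For days 4 to 6 against the empty vector, the Mm343880 count of 2 became 1 with a pseudocount of 1 or of the table median and with a spline of 2 degrees of freedom, and 0 with window means, with day as a shared term and with only the courses compared. The Nanog count of 2 became 1 with a pseudocount of 1, the 2 degree spline, window means, day as a shared term, only the courses compared and array quality weights. The Tbx3 count of 0 became 1 with the table median as pseudocount and with array weights, and the Tcl1 count of 2 became 1 with window means. The retinoic acid count between windows, 6, became 3 with window means.

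Within courses, the Esrrb count of 1 became 2 with the table median as pseudocount, 1 probe set per gene and array weights, 0 with window means and 3 with day as a shared term. The Mm343880 count of 1 became 2 with quantile normalization and day as a shared term, and 0 with the 2 degree spline, window means and only the courses compared. The Nanog count of 2 became 1 with window means and day as a shared term, and the Oct4 count of 3 became 1 with the table median as pseudocount. The Sox2 count of 2 became 1 with the 2 degree spline, window means and array weights. The Tbx3 count of 1 became 0 with window means and 3 with array weights, and the empty vector count of 0 became 1 with array weights. The estimation of the array weights stopped before convergence.

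Leaving out 1 day at a time, late counts ranged from 1 to 3 in Esrrb, 0 to 2 in Mm343880 and 1 to 2 in Nanog, and the count between windows from 2 to 7. Counts within courses ranged from 0 to 1 in the empty vector, 1 to 2 in Esrrb, 0 to 1 in Mm343880, 1 to 2 in Nanog, 1 to 3 in Oct4, 1 to 2 in Sox2 and 3 to 7 with retinoic acid. The courses carry no replicate numbers, so the samples were matched only by day, in the fit with day as a shared term. With 1 sample per day the number of arrays is the limit, and signals near the pseudocount, as for Cyp26b1 and Stra6 without retinoic acid, carry little order.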
